A study of Bos taurus with 16 samples.

Results

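The 29 genes described here make cholesterol, move it through the cell or control those steps. They were chosen by symbol, in the table of RPKM (reads scaled by the length of the gene and the total of the library), as a list of known members of cholesterol synthesis and uptake, and each of the 29 symbols was found once among the 27233 genes measured. All 29 passed the filter on low values, by which 4 or more of 16 libraries had to reach an RPKM of 1 and which 13361 genes passed in all. The samples were whole corpora lutea of pregnant cattle (Bos taurus), with 4 animals each on day 14, day 17, day 20 and day 23 after breeding. All animals were mated naturally when estrus was seen, inseminated 12 hours later and left out where they were not found pregnant. No group of cattle without pregnancy is part of these samples, so that advancing pregnancy and the age of the gland cannot be told apart.

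The corpus luteum makes progesterone from cholesterol at a high rate. Its cells take up cholesterol from lipoproteins and can also build it from acetyl-CoA through mevalonate, farnesyl diphosphate, squalene and lanosterol. Transcription of the enzymes is driven mainly by SREBP-2, the product of SREBF2. SCAP carries the SREBP precursors to the Golgi for cleavage when membranes are low in sterol, and INSIG1 and INSIG2 hold SCAP back in the endoplasmic reticulum when sterol is plentiful. INSIG1 is itself a target of the SREBPs.

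Libraries held 28.7 to 44.6 M reads, recovered from the steps of the RPKM values. The fewest reads behind a single value of a listed gene were 137, in STARD4, which ranged up to 856, while INSIG2 had 291 to 518. The most were 225251, in HMGCS1, which ranged down to 78594. Luteal markers were abundant in every library: the summed RPKM of STAR, CYP11A1, HSD3B1, PTGFR, SCARB1, OXT and INHA was 18849.6 to 20946 on day 14 and 14872 to 20769.6 on day 17, then 16732 to 20385 on day 20 and 17717 to 21661 on day 23. The adrenal marker CYP11B1 had a mean of 0.218 RPKM over the 16 libraries. Of the 3 fat markers ADIPOQ (0.0656) and LEP (0.0136) were near 0 and PLIN1 was at 1.502. Their sum lay between 1.26 and 2.103 RPKM in every library. In whole tissue, fewer cells of a type and less RNA per cell cannot be told apart.

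Synthesis enzymes differed widely in mean level, with HSD17B7 (36.3 RPKM), PMVK (36.9) and MVK (58.3) the lowest of the 18. On the RPKM scale, which allows levels of different genes to be set side by side, HMGCS1 led with a mean of 839 over the 16 libraries, followed by MSMO1 (405), FDFT1 (355), DHCR7 (326), FDPS (286) and ACAT2 (273). The lowest levels belonged to INSIG2 (10.4), MYLIP (13.8) and STARD4 (13.9). Animals of the same day differed more in these genes than in most others. The SD around the day means, on the scale of log2(RPKM + 1), had a median of 0.33 over the 29 genes, against 0.16 over the 6809 genes with a mean RPKM of at least 10. It exceeded the median of those genes in 27 of the 29, all 18 enzymes included, and the exceptions were INSIG2 and NPC2. The SD of INSIG1 was above that of 99.3% of those genes, and the SD of FDFT1 above that of 98.4%.

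**Figure D1:**
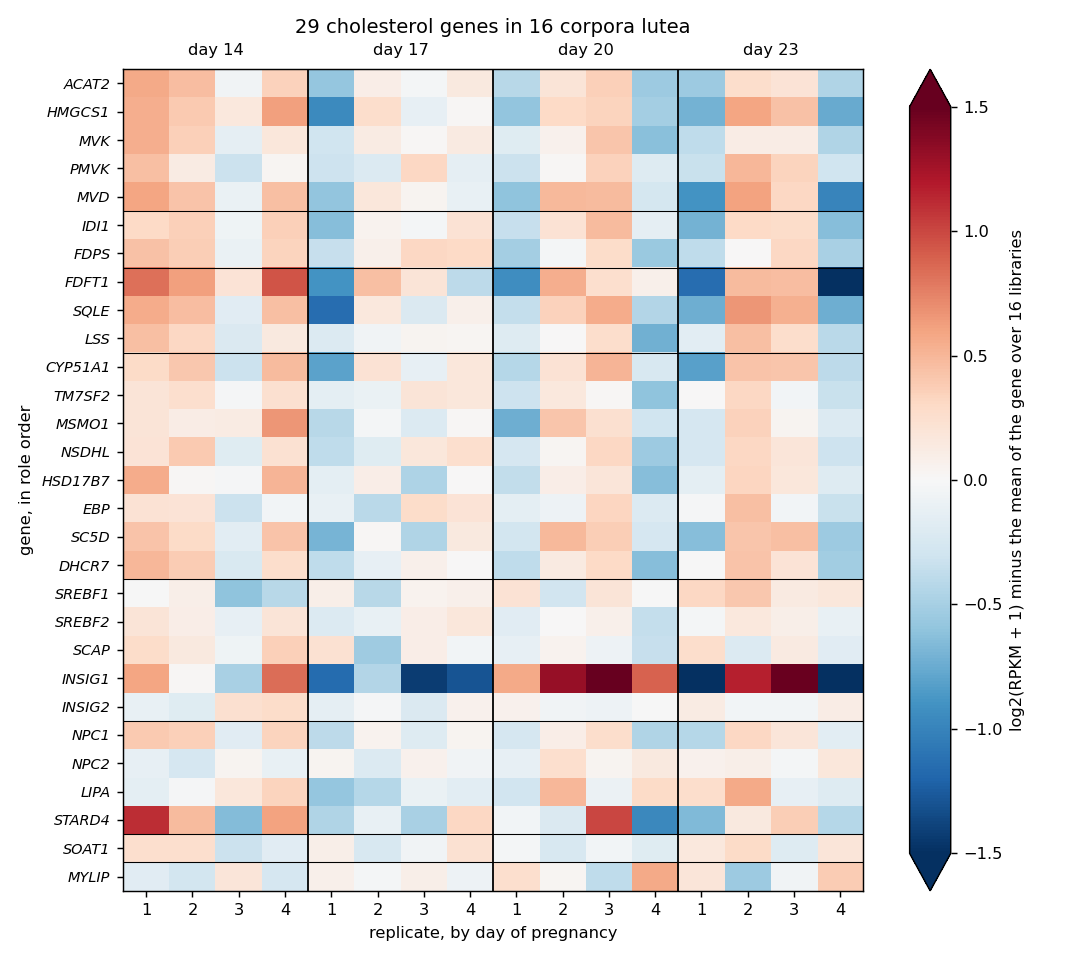
Level of each of the 29 genes (rows, ordered by role and separated by lines) in each of the 16 libraries (columns, 4 replicates per day), as log2(RPKM + 1) minus the mean of the gene over all libraries, with red above and blue below the mean; values past 1.5 either way take the end colour. In the 18 enzyme rows at the top, day 17 replicate 1, day 20 replicates 1 and 4 and day 23 replicates 1 and 4 are blue in most rows.

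No cholesterol gene differed between days past the threshold. In limma (1 model over the 16 libraries of log2(RPKM + 1)), with Benjamini-Hochberg adjustment over the 13361 genes, 0 of 29 had an adjusted p under 0.05 in each of the 6 comparisons between days and in the moderated F test over all days, and 0% of all genes did. At an unadjusted p under 0.05 the 29 genes counted 0 on day 17 against day 14, where 7.57% of all genes did, and 3 (FDPS, TM7SF2 and HSD17B7, all lower) on day 20 against day 14, where 8.11% did. They counted 2 on day 23 against day 14 (FDFT1 lower and SREBF1 higher, 12.6% of all genes), 2 on day 20 against day 17 (INSIG1 and LIPA higher, 8.17%), 0 on day 23 against day 20 (7%) and 1 on day 23 against day 17 (LIPA higher, 11.7%). In the F test 1 of 29 did, INSIG1, and 11.7% of all genes. Voom on the recovered reads also called 0 of 29 after adjustment in each of these tests. Of all genes it called 1 on day 23 against day 14 and 0 in the other tests. At an unadjusted p under 0.05 voom counted 0 to 2 of the 29. Its unadjusted share of all genes was not counted, so nothing is read from these counts.

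All 18 enzymes had lower means on days 17, 20 and 23 than on day 14 on the log2 scale, though none passed the test. For 3 of them the sign itself was not firm over 27 alternatives. For EBP it turned positive in 4 on day 17, 3 on day 20 and 7 on day 23. For PMVK it did so in 1 on day 20 and 4 on day 23. For LSS it did so in 1 on day 23, without day 23 replicate 4. The cases of EBP were leaving out day 14 replicate 1 or 2, day 17 replicate 1 or 2, day 20 replicate 4 or day 23 replicate 1, 3 or 4 and, on day 23, median-ratio scaling and quantile normalization. The cases of PMVK were leaving out day 14 replicate 1 or day 23 replicate 1 or 4 and, on day 23, median-ratio scaling. The median log2 fold changes of the 18 on these 3 days were -0.34, -0.33 and -0.31. Over all 29 genes, negative values stood in 25, 24 and 24, with medians of -0.33, -0.30 and -0.23. Of all 13361 genes, 46.5%, 54.8% and 56.7% were negative, with medians of 0.01, -0.02 and -0.03. These 3 comparisons share the 4 libraries of day 14, and the enzymes move together between animals, so that their signs are not separate pieces of evidence. The median over the 29 genes on day 17 was -0.17 without day 17 replicate 1. On day 20 it was -0.18 without replicate 1 and -0.13 without replicate 4 of that day, and on day 23 -0.14 without replicate 1 and -0.11 without replicate 4. Among the 3 later days, negative values stood in 12 of 29 on day 20 against day 17, where 57.1% of all genes were negative, in 12 on day 23 against day 20 (55.1%) and in 8 on day 23 against day 17 (60%). The medians were 0.06, 0.04 and 0.09. With single libraries left out they ran from -0.08 to 0.10, from -0.07 to 0.16 and from -0.02 to 0.14, so that no direction is given. Libraries of both days overlapped in all 29 genes on day 20 against day 14, where 2.88% of all genes lay wholly below and 2.33% above, and on day 23 against day 20, where 2.89% lay below and 1.56% above.

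**Figure D2:**
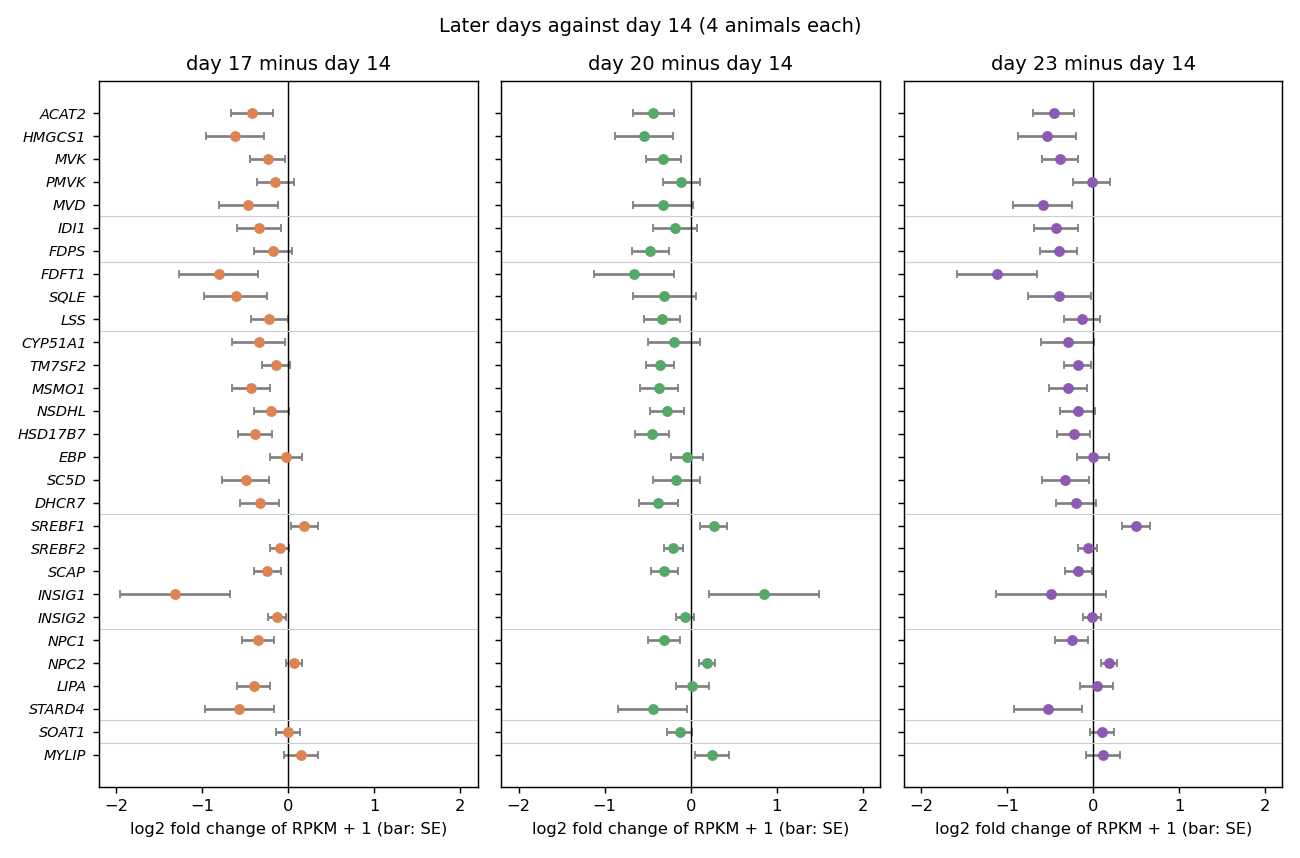
Log2 fold change of RPKM + 1 (x axis) of each of the 29 genes (rows, ordered by role) on day 17, day 20 and day 23, each minus day 14; points are limma estimates from 4 animals a day and bars are standard errors. Points of the 18 enzymes at the top lie at or left of 0 in the 3 panels (for EBP, PMVK and LSS the sign turned under some alternatives), while INSIG1 is at -1.32 on day 17 and 0.85 on day 20 and SREBF1 is at 0.50 on day 23.

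In the first steps, ACAT2 joins 2 acetyl-CoA, HMGCS1 extends the product, and MVK, PMVK and MVD phosphorylate and decarboxylate mevalonate. HMGCS1 had an RPKM of 1154, 1038, 881 and 1209 on day 14, 407, 950.3, 727 and 804 on day 17, 523, 977, 996 and 554 on day 20 and 483, 1189.8, 1069 and 469 on day 23, in the order of replicates 1 to 4. The highest of the 16 was on day 14, while on day 20 and on day 23 replicates 2 and 3 were within the range of day 14 and replicates 1 and 4 were below it. The means were 722 ± 229.5 on day 17, 763 ± 259 on day 20 and 803 ± 380.4 on day 23, against 1071 ± 145 on day 14 (SD, n = 4 each). The log2 fold changes were -0.62 ± 0.34, -0.54 ± 0.34 and -0.54 ± 0.34 (± SE, limma adjusted p = 0.68, 0.74 and 0.54). ACAT2, the enzyme of this group with the smallest p in the F test, had 392, 364, 253 and 334 on day 14, 176, 282, 259 and 291 on day 17, 197, 301, 339 and 179.8 on day 20 and 181, 316, 304 and 192 on day 23. The same animals were low in it, and the days overlapped in each comparison. MVD, the decarboxylase that yields isopentenyl diphosphate, was at 133 ± 71.4 on day 23 against 180.3 ± 34.97 on day 14, a log2 fold change of -0.59 ± 0.34 (limma adjusted p = 0.51). Over the 16 libraries MVD ranged from 69.9 in day 23 replicate 4 to 212 in day 23 replicate 2, MVK from 36.5 in day 20 replicate 4 to 83.6 in day 14 replicate 1 and PMVK from 28.6 in day 23 replicate 1 to 51.5 in day 23 replicate 2. MVK and PMVK had smaller log2 fold changes against day 14, of -0.24 and -0.15 on day 17, -0.32 and -0.11 on day 20 and -0.39 and -0.02 on day 23.

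Isopentenyl diphosphate is isomerized by IDI1 and built up to farnesyl diphosphate by FDPS, the branch point to other isoprenoids. FDPS had 378, 360.03, 259 and 350.3 on day 14, 218, 292, 345 and 342 on day 17, 195, 272, 337 and 188 on day 20 and 213, 279, 344 and 198 on day 23, with day 20 at 248 ± 70.4 against 337 ± 53.1 on day 14 (log2 fold change -0.47 ± 0.22, limma adjusted p = 0.61). The overlap came through day 14 replicate 3, which lay below the 2 higher libraries of day 20. IDI1 was at 173 ± 64.3 on day 23 against 223 ± 29.1 on day 14 (log2 fold change -0.43 ± 0.25, limma adjusted p = 0.51), and ranged from 115 in day 23 replicate 1 to 262 in day 20 replicate 3.

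FDFT1, SQLE and LSS commit farnesyl diphosphate to sterols: FDFT1 joins it into squalene, SQLE oxidizes squalene and LSS closes the ring of lanosterol. FDFT1 had the most negative log2 fold change of the 18 enzymes on each later day. Its RPKM was 563, 485, 363 and 608 on day 14, 169, 432, 361 and 241 on day 17, 165, 461, 377 and 335 on day 20 and 142, 439, 436 and 98.5 on day 23. On day 23 its 4 animals lay at 2 levels, 439 and 436 in replicates 2 and 3 and 142 and 98.5 in replicates 1 and 4, a range of 4.46-fold within 1 day. The log2 fold change on day 23 was -1.12 ± 0.46 (limma adjusted p = 0.33), with 279 ± 184 on day 23 against 505 ± 107 on day 14. SQLE had 330.5, 310.3, 199.9 and 307 on day 14, 101, 251, 192 and 236 on day 17, 174, 285, 329 and 165 on day 20 and 135, 355, 325 and 134 on day 23. Its 2 levels on day 23 were 2.65-fold apart at the ends, and the higher ones reached those of day 14. LSS varied less, between 110.2 and 251 over the 16 libraries, with log2 fold changes against day 14 of -0.22 on day 17, -0.34 on day 20 and -0.13 on day 23.

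**Figure D3:**
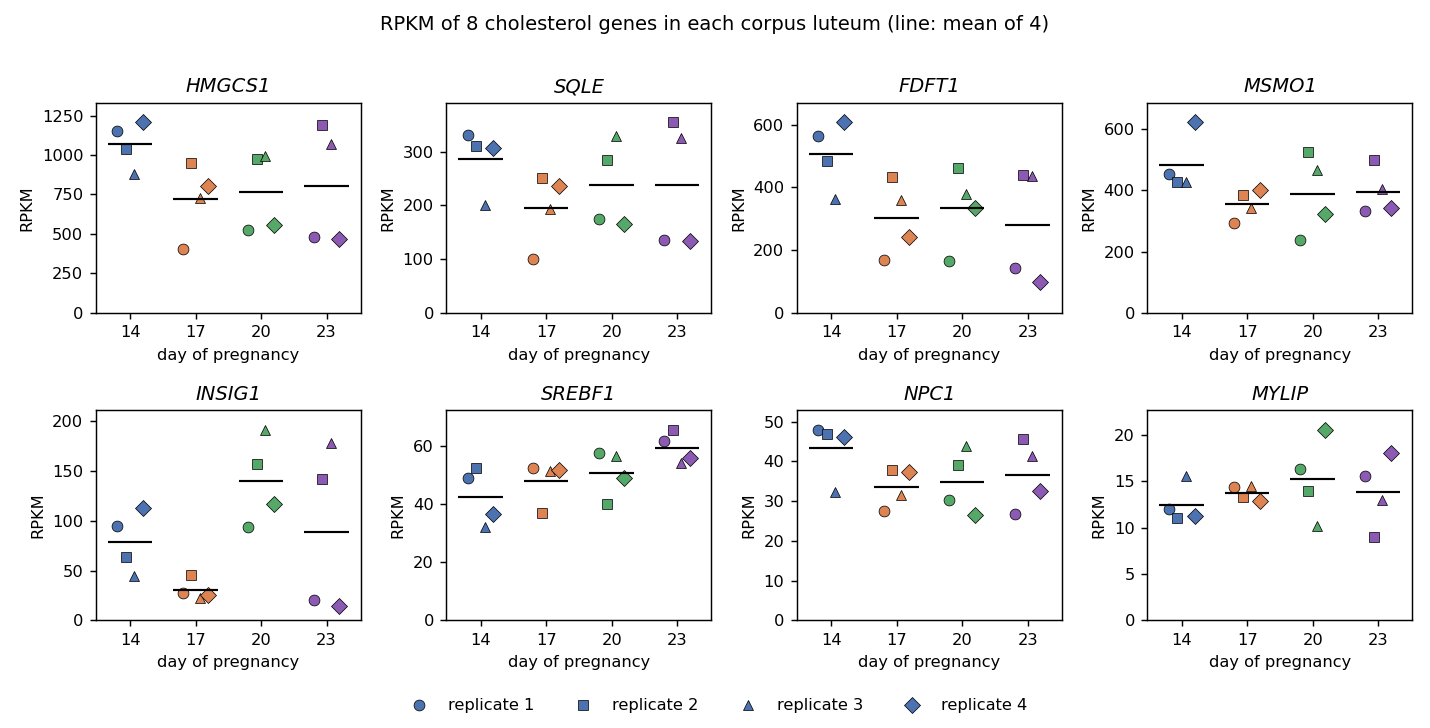
RPKM (y axes, each starting at 0) of 8 of the genes in each animal by day of pregnancy (x axis); each point is 1 library, its shape gives the replicate number and the line is the mean of 4. HMGCS1, SQLE, FDFT1 and NPC1 have the same animals low on days 20 and 23, while MYLIP is higher in those animals than in the others of the same day.

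From lanosterol, CYP51A1, TM7SF2, MSMO1, NSDHL and HSD17B7 remove methyl groups and reduce the ring, and EBP, SC5D and DHCR7 finish cholesterol. HSD17B7, with the smallest p of the 8 in the F test, had 52.7, 35.99, 34.9 and 50.9 on day 14, 31.9, 38.2, 25.5 and 35.6 on day 17, 27.3, 38.2, 40.3 and 22.4 on day 20 and 31.8, 44.6, 40.1 and 30.99 on day 23, and day 20 was at 32.1 ± 8.59 against 43.6 ± 9.46 on day 14 (log2 fold change -0.45 ± 0.20, limma adjusted p = 0.58). TM7SF2 was at 221 ± 51.1 on day 20 against 278 ± 23.7 on day 14 (log2 fold change -0.35 ± 0.16, limma adjusted p = 0.60). In both genes some libraries of day 20 lay within the range of day 14. MSMO1, the sterol-C4-methyl oxidase, had 452, 426, 429 and 623 on day 14, 294, 386, 342 and 401 on day 17, 236, 525, 466 and 322 on day 20 and 332, 499.7, 405 and 343 on day 23. It was the 1 gene of the 29 whose 4 libraries of day 17 all lay below the 4 of day 14, which 1.21% of all genes did, while 2.06% had all 4 above and none of the 29 did, at a log2 fold change of -0.43 ± 0.22 (limma adjusted p = 0.66). SC5D was at 74.2 ± 20.04 on day 17 against 103 ± 18.4 on day 14 (-0.49 ± 0.28 on the log2 scale). CYP51A1, the first demethylase of lanosterol, ranged from 75.2 in day 23 replicate 1 to 189.6 in day 20 replicate 3. NSDHL ran from 149 in day 20 replicate 4 to 286 in day 14 replicate 2, SC5D from 52.4 in day 17 replicate 1 to 121 in day 20 replicate 2, and DHCR7, the last reductase, from 203 in day 20 replicate 4 to 448 in day 14 replicate 1. The low ends of all of these fell among the animals of days 17, 20 and 23. Each gene had animals of day 23 within the range of day 14. CYP51A1, NSDHL and DHCR7 had log2 fold changes between -0.38 and -0.18 against day 14. EBP, the sterol isomerase, was at 84.8 ± 14.5 on day 14 and 83.8 ± 17.5 on day 17, then 82.2 ± 14.7 on day 20 and 85.3 ± 20.1 on day 23 (SD, n = 4 each).

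The enzymes varied together from animal to animal. This was measured against HMGCS1, with limma fitting the log2(RPKM + 1) of each gene on that of HMGCS1 over the 16 libraries. Of the other 28 genes, 16 had a positive slope with an adjusted p under 0.05 over all 13360 genes, as 0.763% of all genes had, and 1 had a negative slope, as 0.921% had. The 16 were NPC1 and 15 of the 17 other enzymes. EBP (r = 0.43, adjusted p = 0.33) and TM7SF2 (r = 0.69, adjusted p = 0.066) did not pass in limma. A Pearson r of at least 0.7 was reached by 17 of the 28 and by 1.12% of all genes, and the median r was 0.77 over the 28 against -0.09 over all genes.

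SQLE followed HMGCS1 most closely (Pearson r = 0.97, permutation p = 1e-05, Spearman rho = 0.94, permutation p = 1e-05, n = 16, limma adjusted p = 1.5e-06). Next were ACAT2 (Pearson r = 0.95, permutation p = 1e-05, Spearman rho = 0.90, permutation p = 3e-05, n = 16), MVD (r = 0.94), IDI1 (r = 0.93), SC5D (r = 0.92) and CYP51A1 (r = 0.92). A permutation p of 1e-05 is the smallest that 100000 resamples can give. Without the 2 libraries farthest from the median of HMGCS1, day 17 replicate 1 and day 23 replicate 4, r was 0.95 for SQLE and 0.93 for ACAT2. The relation lay within the days: with day as a factor, 11 of the 28 genes passed with a positive slope, against 0.419% of all genes, and the median r of the deviations from the day means was 0.78 over the 28 against -0.13 over all genes. That r was at least 0.7 for 18 of the 28 and for 1.35% of all genes. Among the 18 enzymes 112 of 153 pairs had an r of at least 0.7, with a median of 0.78 and a range of 0.32 to 0.97, where pairs share genes and libraries. Pairs among all genes were not counted, so no share stands beside this count. In 5 libraries HMGCS1 lay between 407 and 554 RPKM, with the next at 727. They were day 17 replicate 1, day 20 replicates 1 and 4 and day 23 replicates 1 and 4. In the other 11 libraries, fewer and over a narrower range of HMGCS1, the median r over the 28 genes was 0.53, and 0 of 13360 genes passed. Among the enzymes r there ran from 0.11 for EBP and FDPS, 0.26 for TM7SF2, 0.30 for NSDHL, 0.40 for PMVK and 0.46 for MVK to 0.88 for SQLE and 0.90 for HSD17B7.

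**Figure D4:**
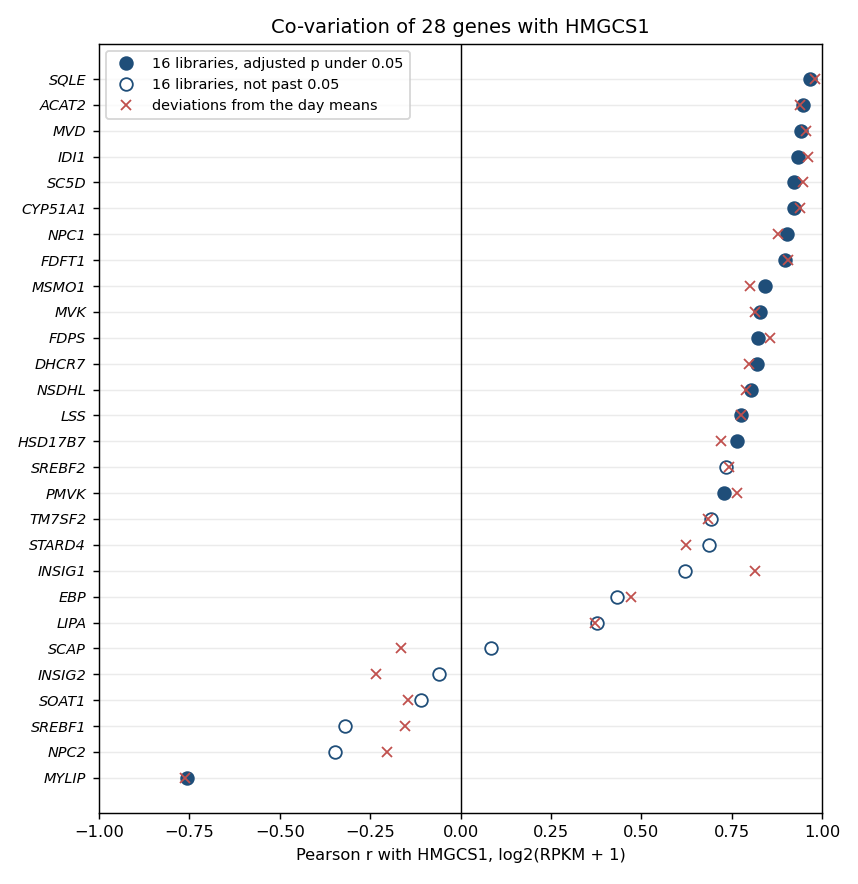
Pearson r (x axis) of the log2(RPKM + 1) of each of 28 genes with that of HMGCS1; circles use the 16 libraries as they are and are filled where the limma adjusted p over all genes was under 0.05, and crosses use deviations from the day means. SQLE is at the top with r = 0.97, 16 filled circles lie above 0.7, and MYLIP is alone below -0.7.

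The 5 low libraries were low in most of the 18 enzymes. Counting, for each library, the enzymes of the 18 whose RPKM was below every one of the 4 animals of day 14 gave 15 in day 17 replicate 1, 15 and 15 in day 20 replicates 1 and 4, and 14 and 17 in day 23 replicates 1 and 4. The count was 0 in day 20 replicates 2 and 3, 0 in day 23 replicate 2 and 2 in day 23 replicate 3, and it was 4, 6 and 4 in day 17 replicates 2, 3 and 4. The 5 libraries were picked as the lowest in HMGCS1, which is itself among the 18 and varies with most of the others. The same count over all genes was not made, so no share of all genes stands beside these counts. On day 20 both higher animals exceeded both lower ones in 18 of 18 enzymes, an order that 10.3% of all genes had, and on day 23 in 16 of 18, where 12.3% of all genes had it. This order was read from the values and is given without a test. HMGCS1 and the number of reads per library had a Pearson r = -0.20, permutation p = 0.465, Spearman rho = -0.03, permutation p = 0.908, n = 16.

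Markers of other cells were set beside HMGCS1 as well. The 5 leukocyte markers PTPRC, CD68, CD163, CD3E and NKG7 all had a negative r, from -0.73 to -0.20. Over all genes the median r was -0.09, and a negative slope passed in 0.921%. CD3E, of the T cell receptor complex, passed (Pearson r = -0.73, permutation p = 0.00152, Spearman rho = -0.74, permutation p = 0.00162, n = 16, limma adjusted p = 0.038). Its r was -0.27 in the 11 libraries without the 5 low ones. The summed RPKM of the 5 leukocyte markers was 40.1 to 54.4 on day 14 and 33.2 to 69.9 on day 17, then 48.4 to 79.4 on day 20 and 37.9 to 52.1 on day 23, with r = -0.47 to HMGCS1 (permutation p = 0.0653, Spearman rho = -0.44, permutation p = 0.0866, n = 16). For the sum of the luteal markers r was 0.11 (permutation p = 0.672, Spearman rho = 0.34, permutation p = 0.191). Over the 7 single luteal markers r ran from -0.35 to 0.69, with a median of 0.01 and 3 negative, and none passed in limma. PTGFR had the highest (Pearson r = 0.69, permutation p = 0.00332, Spearman rho = 0.73, permutation p = 0.00162, n = 16, limma adjusted p = 0.060). Its r was 0.74 in the 11 libraries without the 5 low ones. The sum of CYP19A1, FSHR and CYP17A1, markers of follicular cells, was 4.15 to 6.32 on day 14 and 3.06 to 8.94 on day 17, then 2.85 to 8.92 on day 20 and 3.09 to 4.82 on day 23, with Pearson r = 0.60, permutation p = 0.0143, Spearman rho = 0.57, permutation p = 0.0226, n = 16. Sums of the endothelial, fibroblast, smooth muscle, red blood cell, adipocyte and adrenal markers had r between -0.23 and 0.35 (smallest permutation p = 0.186). Adjusted over the 51 relations to HMGCS1 computed in this way, Pearson p was 0.111 for the leukocyte sum and 0.0251 for the follicular sum, whose r was 0.59 without the 2 farthest libraries and 0.23 in the 11 libraries without the 5 low ones. In how far leukocyte, follicular or luteal cell RNA enters the co-variation was not tested.

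Among the genes that control the pathway, INSIG1 had the widest range. Its RPKM was 95.1, 63.4, 44.5 and 113 on day 14, 27.7, 46.01, 22.8 and 25.1 on day 17, 93.7, 157, 192 and 117 on day 20 and 20.4, 142, 178 and 14.2 on day 23. Each library of day 20 was above all those of day 17, which 1.37% of all genes did (3.19% had all 4 below). On day 23 replicates 2 and 3 were at the level of day 20 and replicates 1 and 4 below every other library, 12.5-fold apart at the ends. The mean was 140.05 ± 43.4 on day 20 against 30.4 ± 10.6 on day 17 (SD, n = 4), a log2 fold change of 2.17 ± 0.64 that did not pass (limma adjusted p = 0.44). With only the 8 libraries of these 2 days in the fit, the limma adjusted p was 0.085 and the log2 fold change 2.17. Over all alternatives the adjusted p ran from 0.085 to 0.71. Against day 14 (79.1 ± 30.97), the log2 fold changes were -1.32 ± 0.64 on day 17, 0.85 ± 0.64 on day 20 and -0.49 ± 0.64 on day 23 (limma adjusted p = 0.65, 0.81 and 0.81). The last was 0.12 without day 23 replicate 4.

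INSIG1 followed HMGCS1 within days, and its level relative to HMGCS1 was highest on day 20. Over the 16 libraries its r with HMGCS1 was 0.62 (limma adjusted p = 0.10), and with day as a factor it was 0.81 (adjusted p = 0.034). Expressed as a percentage of HMGCS1 in the same library, a ratio that scaling by 1 factor per library cannot change, INSIG1 was 8.24, 6.11, 5.05 and 9.38 on day 14, 6.79, 4.84, 3.14 and 3.13 on day 17, 17.9, 16.1, 19.3 and 21.1 on day 20 and 4.21, 11.9, 16.6 and 3.03 on day 23. The 4 animals of day 20 had a mean of 18.6 ± 2.13%, against 7.20 ± 1.97% on day 14 and 4.47 ± 1.74% on day 17, and lay above all 8 animals of those days. Exact two-sided permutation p was 0.0286 against day 14 and 0.0286 against day 17, the smallest that 4 against 4 can give, and 0.0571 for day 23 against day 20. Of all genes, 4.75% had a ratio to HMGCS1 higher in all 4 animals of day 20 than in all of day 14, 0.187% than in all of day 17 and 0.105% than in both. Adjusted over the 6 comparisons of days, both of the smallest were 0.0857, and the ratio was chosen after the values were seen. On day 20, replicates 1 and 4 had low enzyme mRNAs beside INSIG1 of 93.7 and 117 RPKM, whereas day 23 replicates 1 and 4, low in the same enzymes, had 20.4 and 14.2.

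**Figure D5:**
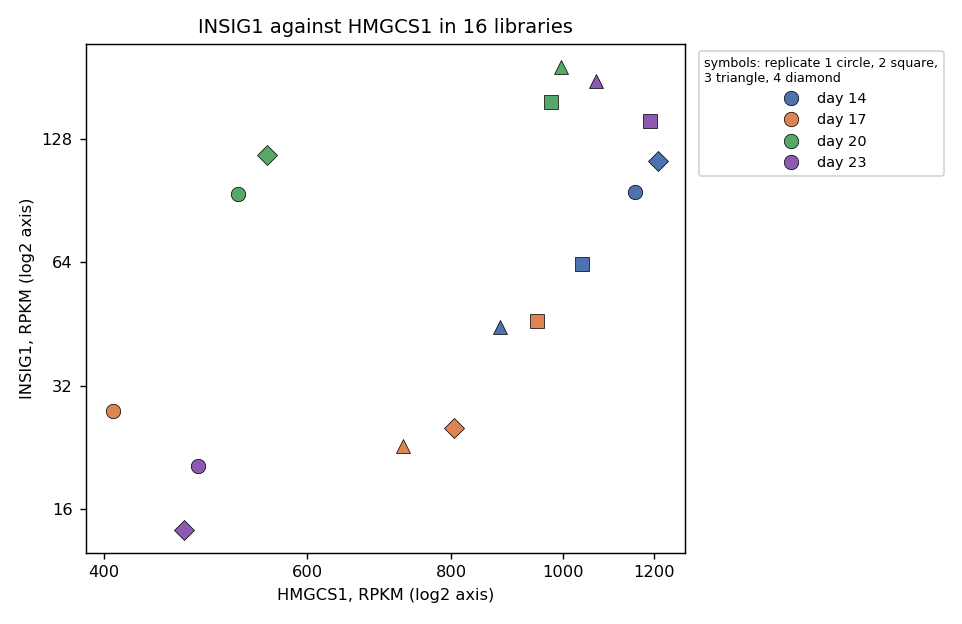
INSIG1 (y axis) against HMGCS1 (x axis), both in RPKM on log2 axes, in the 16 libraries; colour gives the day and shape the replicate. The 4 libraries of day 20 lie above those of days 14 and 17 relative to HMGCS1, and day 23 has 2 libraries at the upper right and 2 at the lower left.

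SREBF1, which encodes the SREBP-1 that acts mainly on fatty acid genes, had higher means on the later days. It had 48.9, 52.4, 31.95 and 36.6 on day 14, 52.4, 36.8, 51.3 and 51.8 on day 17, 57.5, 40.1, 56.4 and 49.1 on day 20 and 61.5, 65.6, 54.2 and 55.7 on day 23. Every animal of day 23 exceeded the 4 of day 14, as 2.15% of all genes did, and the 4 of day 17, as 1.26% did (5.24% lay below). The means were 59.3 ± 5.27 on day 23 and 42.5 ± 9.76 on day 14, with a log2 fold change of 0.50 ± 0.16 (limma adjusted p = 0.20), the smallest adjusted p of the 29 genes against day 14. Its r with HMGCS1 was -0.32 (limma adjusted p = 0.51). SREBF2 was at 136 ± 13.3 on day 14 and 127 ± 15.5 on day 17, then 119 ± 15.8 on day 20 and 130.2 ± 11.3 on day 23 (SD, n = 4 each), and had r = 0.73 to HMGCS1 (adjusted p = 0.058). SCAP was at 223 ± 25.6 on day 20 against 276 ± 35.1 on day 14 (-0.30 ± 0.16 on the log2 scale, limma adjusted p = 0.68) and its r was 0.08. INSIG2 was between 8.83 and 12.8 RPKM in the 16 libraries, with r = -0.06 (adjusted p = 0.93), while INSIG1 spanned 14.2 to 192.

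Genes of lysosomal cholesterol handling differed in how far they varied with the enzymes. NPC1, the membrane protein that releases cholesterol from lysosomes, had 47.999, 46.95, 32.2 and 46.1 on day 14, 27.4, 37.9, 31.7 and 37.4 on day 17, 30.3, 39.03, 43.9 and 26.4 on day 20 and 26.7, 45.5, 41.4 and 32.6 on day 23. It varied with HMGCS1 (Pearson r = 0.90, permutation p = 2e-05, Spearman rho = 0.89, permutation p = 2e-05, n = 16, limma adjusted p = 6.8e-04), also without the 2 farthest libraries (r = 0.93) and in the 11 libraries without the 5 low ones (r = 0.87). Its soluble partner NPC2 had r = -0.35 (limma adjusted p = 0.51), and its mean was 138 ± 15.4 on day 20 and 137 ± 7.996 on day 23, against 121 ± 9.79 on day 14. LIPA, the lysosomal lipase that frees cholesterol from esters, had 37.8, 41.5, 47.5 and 53.2 on day 14, 27.7, 31.04, 39.05 and 37.5 on day 17, 34.3, 59.5, 39.5 and 51.6 on day 20 and 50.5, 62.6, 38.5 and 36.5 on day 23. Day 17 held the 2 lowest libraries, and each of the other days had animals above all of day 17. The log2 fold changes of LIPA were 0.42 ± 0.19 on day 20 and 0.44 ± 0.19 on day 23 against day 17 (limma adjusted p = 0.60 and 0.38), with overlap between the days. In the RefSeq gene table LIPA overlaps the interferon-induced genes IFIT2, IFIT3 and IFIT5. The use of strand in the counting is not stated, so that reads of LIPA and these genes may not be told apart. The same limit holds for ACAT2 with TCP1, NPC1 with RMC1 and SREBF1 with RAI1, overlapping genes that also code for proteins. STARD4, a carrier of cholesterol between membranes, had 28.4, 17.98, 7.71 and 19.8 on day 14, 9.02, 11.6, 8.76 and 15.96 on day 17, 12.3, 10.7, 26.3 and 5.99 on day 20 and 7.65, 14.1, 16.7 and 9.15 on day 23, and its r with HMGCS1 was 0.69 (limma adjusted p = 0.059). Its highest library was day 14 replicate 1, its lowest day 20 replicate 4, and all days overlapped.

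SOAT1, which esterifies cholesterol for storage, had 51.2, 51.1, 33.9 and 37.9 on day 14, 45.4, 35.8, 41.2 and 50.3 on day 17, 41.8, 36.1, 41.4 and 37.3 on day 20 and 47.6, 52.3, 37.3 and 48.5 on day 23. The days overlapped throughout, and the slope on HMGCS1 did not pass (r = -0.11, limma adjusted p = 0.86). MYLIP, also called IDOL, is the ubiquitin ligase that marks lipoprotein receptors for breakdown, and oxysterols induce it through LXR. It was the 1 gene of the 28 with a negative slope that passed, with an RPKM of 11.97, 11.01, 15.5 and 11.3 on day 14, 14.4, 13.3, 14.5 and 12.8 on day 17, 16.3, 13.9, 10.2 and 20.6 on day 20 and 15.5, 8.96, 12.98 and 18.02 on day 23. The highest 2 libraries, day 20 replicate 4 and day 23 replicate 4, were among the 5 lowest in HMGCS1, and the lowest, day 23 replicate 2, was the second highest in HMGCS1. The relation to HMGCS1 had a Pearson r = -0.76, permutation p = 0.00054, Spearman rho = -0.81, permutation p = 0.00017, n = 16, with limma adjusted p = 0.031 over all genes and 0.075 with day as a factor. Without the 2 farthest libraries r was -0.79, and in the 11 libraries without the 5 low ones -0.67. Its r with the single enzymes lay between -0.92 and -0.59.

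Of 43 related genes listed, 38 passed the filter, and none differed between days in limma after adjustment. Beside the 0.763% of all genes that followed HMGCS1 with a positive slope and the 0.921% with a negative one, a count of 0 in a short list does not set it apart. Fatty acid and other SREBP targets followed HMGCS1 in 3 of 13: SCD, the stearoyl-CoA desaturase (r = 0.78, adjusted p = 0.024), LPIN1, a phosphatidate phosphatase (r = 0.78, adjusted p = 0.018), and ELOVL6, a fatty acid elongase (r = 0.72, adjusted p = 0.047). The median r of the 13 was 0.54, and FASN was at 0.48. The 2 with the smallest p in the F test were ACSS2 (limma F test adjusted p = 0.56) and STARD10 (0.58). Of 8 genes of SREBP processing 0 followed (median r = -0.15), and RNF139 had the smallest F test p (limma adjusted p = 0.58). Efflux, oxysterol and ester genes followed in 0 of 10 (median r = -0.25). The LXR gene NR1H3 was the most negative (r = -0.66, adjusted p = 0.096), with STARD5 next (r = -0.64). For NR1H3 Spearman rho was -0.50 (permutation p = 0.0524). Its r was -0.46 without the 2 libraries farthest from the median of HMGCS1 and -0.04 in the 11 libraries without the 5 low ones. ABCG1, a cholesterol exporter and LXR target, had the smallest F test p of these (limma adjusted p = 0.46), followed by STARD3 (0.56). ABCG1 was at 0.318 ± 0.167 RPKM on day 23 against 1.85 ± 0.403 on day 14 (log2 fold change -1.11 ± 0.38, limma adjusted p = 0.23). Every animal of day 23 lay below those of day 14, as 4.81% of all genes did. Its mean over all libraries was 1.04 RPKM, near the filter on low values, where log2(RPKM + 1) understates a change.

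Of genes that turn cholesterol into progesterone or bring it in from lipoproteins, 0 of 7 followed HMGCS1, beside the same shares of all genes, and their median r was -0.05. It was 0.01 for the side-chain cleavage enzyme gene CYP11A1 (limma adjusted p = 0.99), -0.26 for HSD3B1 (0.68) and 0.12 for the lipoprotein receptor gene SCARB1 (0.86). STAR, the mitochondrial cholesterol carrier, had r = -0.35 (adjusted p = 0.47), and STAR and FDXR had the smallest F test p of this group (adjusted p = 0.44 and 0.58).

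Outside these lists, the genes whose pattern over the 16 libraries was most like that of HMGCS1 included PRKAG2, a regulatory subunit of AMP-activated protein kinase (r = 0.91, limma adjusted p = 2.7e-04), at a mean of 62.5 RPKM. ANKRD39 (r = 0.90), MFSD14A (r = 0.89), EMSY (r = 0.89), the mitochondrial protease gene YME1L1 (r = 0.87), GLDN (r = 0.87), the splicing helicase gene DHX15 (r = 0.87) and TMEM268 (r = 0.87) came next. Within days their r lay between 0.86 and 0.94. In the authors' deposited table, which gives 1 p-value a gene for a comparison that its header does not name, 0 of the 29 genes had an adjusted p under 0.05, with the lowest for INSIG1 at 0.178, whereas 527 of 15806 genes did.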

How the data were processed

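Per the labels' protocols, total RNA of corpora lutea with a quality index above 8.5 was made into TruSeq Stranded mRNA libraries. Tools listed in the submitters' processing notes, without settings, are HISAT2 2.1.0, featureCounts 1.5.3, bedtools 2.26.0, FastQC and DESeq2, with the build ARS-UCD1.2. The authors deposited 1 table with an RPKM per gene and library, which is scaled by gene length and library total and by nothing else, and also 1 raw and 1 adjusted p-value for each gene, whose comparison the headers do not name. Use of strand in counting was not stated; in the RefSeq gene table (ARS-UCD2.0, used for names and neighbours), all 29 genes matched by symbol and 10 overlapped another gene.

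Libraries were grouped by their labelled day of pregnancy. Genes reaching an RPKM of 1 in 4 or more libraries were fitted as log2(RPKM + 1), a scale that understates changes of low genes, with limma 3.58.1 (R 4.3.3, eBayes with trend, 12 residual degrees of freedom), 1 model for all libraries, and Benjamini-Hochberg adjustment at 0.05. Co-variation was a limma slope on HMGCS1, alone and with day as a factor. Single correlations were tested with 100000 two-sided permutations. RPKM values of 27233 of 27233 genes were whole multiples of 1 read within a tolerance of 0.001, and the recovered reads were tested with voom as an alternative. The median library held 33.9 M reads. The scripts were tested on simulated data.

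The 29 genes, the lists of related genes and of markers and the tests were chosen with earlier results of these data known. All 29 were named, with every library given for HMGCS1 and for 1 to 3 genes of each role among those with the smallest p in the F test. MSMO1 and NPC1 were given by library, whereas TM7SF2 and NPC2, with smaller F test p in the same roles, were given as day means. Of the related genes, those that followed HMGCS1 or, per list, the 2 with the smallest F test p were named, and outside the lists the 10 genes with the highest r with HMGCS1. Library values of STARD4, and FASN, NR1H3, CYP11A1, HSD3B1 and SCARB1, were added after values were seen. A few of the genes this covers are left out here. The labels do not say that replicate numbers are shared between days, and libraries were treated as unpaired. Deviations from the day means had a median r of 0.03 over 24 pairs of libraries with the same number (-0.23 to 0.21). It was -0.01 over 72 pairs with different numbers (-0.26 to 0.21). A median over pairs cannot show a link by number that is limited to some genes or animals, and such a link was not tested. Alternatives were other pseudocounts, filters, scalings, weights and fits, and leaving out single libraries.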

Additional observations from a re-analysis of the deposited data

Results flagged for a closer look

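Gaps between 1 library and the other 3 of its day were measured for the 29 genes on the 4 days, 116 groups in all. The gap over the range of the group passed Dixon's critical value for 4 libraries in 3, where chance gives about 1 in 20 groups. MSMO1 was 623 RPKM in day 14 replicate 4, with the next library at 452. SREBF1 was 36.8 RPKM in day 17 replicate 2, with the next at 51.3. NPC1 was 32.2 RPKM in day 14 replicate 3, with the next at 46.1, and that library was also the lowest of its day in all of the enzymes except MSMO1.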

How the results depend on the processing

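Under 27 alternatives for each comparison of days, 0 of the 29 genes passed in limma or voom. With the replicate block, 0 passed in each comparison, and 11 genes followed HMGCS1 with a median r of 0.81. The number with a negative log2 fold change moved by over 1.5 times only between later days: on day 20 against day 17 it was 6 with array weights and 5 to 19 with single libraries left out, on day 23 against day 20 it was 7 to 18 with single libraries left out, and on day 23 against day 17 it was 5 with median-ratio scaling and 3 to 18 with single libraries left out. The cause was not tested. Leaving out the 5 libraries lowest in HMGCS1, an alternative added after the data were seen, left 0 genes that followed HMGCS1 and a median r of 0.53, with fewer samples and a narrower range. The count that followed was 13 to 17 with single libraries left out. For the fits with the replicate block or without single libraries, the share of all genes that followed is not given here. The share in the main fit does not carry over to them, so these counts have no background beside them. Each day had 4 animals, and the fewest reads of a listed gene in a library were 137, for STARD4.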
